A study of Homo sapiens with 6 samples.

Results

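The ERBB family of receptors was examined in the RNA of IGR37 cells, a line from a human melanoma in which doxycycline switches on a CTNNB1 transgene. The transgene encodes beta-catenin with the nuclear localisation signal of SV40 large T antigen at its N-terminus and was put in with a piggyBac vector and selected with G418, so both groups carry it. The doxycycline group (20 ng/ml, 24 h) and the group without doxycycline, its control, had 3 libraries each. Sequencing started from the 3' end of polyadenylated transcripts, and the labels do not tell if replicates came from separate cultures. The set holds 9 genes, chosen by their role: the receptors EGFR, ERBB2 and ERBB3, the ligands NRG1, HBEGF, AREG, EREG and TGFA, and the feedback inhibitor ERRFI1. Of these, 7 have a row among the 12558 gene rows of the authors' deposited edgeR table, and the RNA levels of AREG and EREG are not analysed here.

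ERBB receptors are tyrosine kinases of the cell surface that signal in pairs. EGFR binds ligands of the EGF group such as TGF-alpha and HB-EGF, ERBB3 binds neuregulins but has little kinase activity of its own, and ERBB2 has no known ligand and serves as the partner of the others. In the melanocyte lineage ERBB3 is a neural crest gene that SOX10 is known to activate, and EGFR has been described as a receptor that melanoma cells gain when SOX10 is lost. Both statements are background and not results of these data.

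The table gives a log2 fold change, an average log2 CPM (reads scaled to library size), an F statistic, a p-value and an FDR (p adjusted over all rows) for each gene, and no value per library. The header leaves out which group was set against which, so "higher" and "lower" stand for a positive or negative deposited value. It names no group at all, so that the table sets doxycycline against no doxycycline is taken from the series' labels and could not be checked in its values; it may hold another comparison. The authors' deposited table has CTNNB1, the induced gene, 3.89-fold higher (log2 1.96, edgeR FDR 1.24e-08). Doxycycline minus no doxycycline would give this sign, but the order is not stated and the 3' reads need not count the transgene. The table also goes beyond a few target genes: 50.9% of all genes passed an edgeR FDR of 0.05, and the melanocyte lineage markers SOX10, MITF, PMEL, MLANA, TYR and DCT summed to 6254 CPM on the positive side and 97.2 CPM on the negative side. Summed levels of 4 fibroblast markers were 8.42 CPM on the positive side and 193 CPM on the negative side, and those of 3 epithelial markers were 3.46 CPM and 357 CPM in the same order. KRT18 alone gave 346 CPM of that last sum, and KRT5, KRT14, EPCAM, PDGFRB and DCN have no row. The 5 measured markers of dedifferentiated melanoma, AXL, WNT5A, ITGA3, TPM1 and CYR61, summed to 103 CPM on the positive side and 1489 CPM on the negative side. All 6 lineage markers were higher. Of the others, 3 of the 4 fibroblast markers, all 3 epithelial markers and all 5 dedifferentiated melanoma markers were lower. Of 3 blood and endothelial markers 1 was higher and 2 lower. Their part in the ERBB results was not tested. In bulk RNA, fewer cells with a transcript and less of it per cell cannot be told apart.

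Levels per side were computed here from the average CPM and the fold change, with both groups weighted equally. Because the kit gives reads at the 3' end of a transcript, CPM does not grow with transcript length, and levels of different genes are set side by side on that scale. The depth of each library is not known, but the lowest levels fell into steps. Above 3 CPM on average, 44 genes lay at the lowest step on the positive side and 13 on the negative side, the same numbers that the F statistics gave for genes with no reads there. The next step up, 1 read in a whole group, was worth 0.140 CPM on the positive side and 0.0534 CPM on the negative side of this equally weighted scale. These 2 values are therefore not the true CPM of 1 read, and their ratio is not the ratio of depths. Depth was estimated from the lowest step relative to the step of 1 read on each side. By that estimate the negative side was sequenced about 1.70 times as deeply, if edgeR scaled its prior count to library size. Weighting by that depth multiplied the levels of the 7 genes by 0.828 to 1.34, on both sides of a gene alike, and left the folds as they are.

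Of the 7 measured genes, 6 passed an edgeR FDR of 0.05, 2 of them higher and 4 lower, against 50.9% of all genes (24.5% higher, 26.4% lower). All 6 differed at least 2-fold, which 28.9% of all genes did at that FDR. ERBB3 and HBEGF were higher, EGFR, NRG1, TGFA and ERRFI1 lower, and ERBB2 did not pass. The median log2 fold change was -2.76 for the 7 genes and -0.01 for all genes in the authors' deposited table. Centred on the 59 spike-in RNAs, whose median was 0.57, the same comparison gave 2 higher and 5 lower members. Over all genes that centring gave 1423 higher and 6564 lower, against 3080 higher and 3318 lower as deposited.

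**Figure D1:**
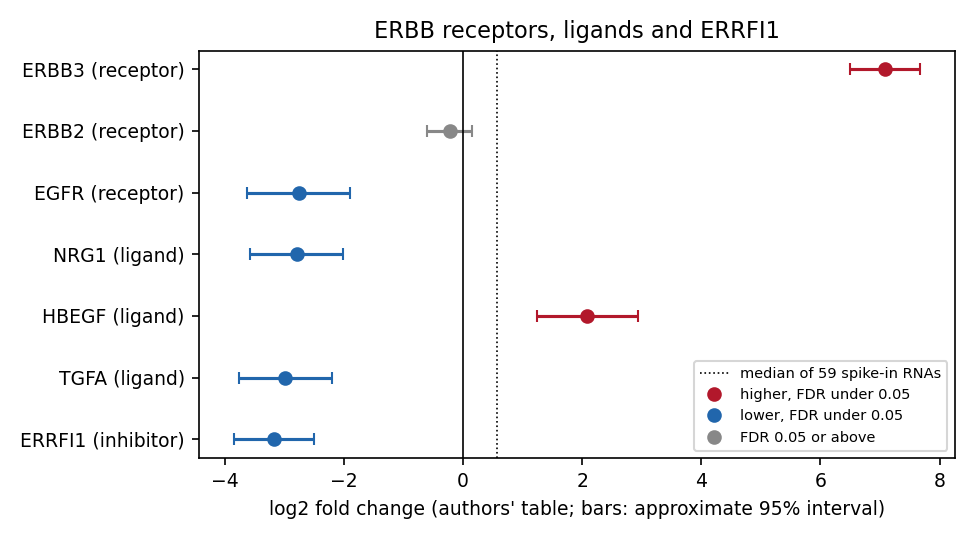
Log2 fold change of the 7 measured genes in the authors' deposited table, with approximate 95% intervals computed from the F statistic, of which that of ERBB3 is likely too narrow. The dotted line is the spike-in median. ERBB3 lies at 7.08 and HBEGF at 2.09, the interval of ERBB2 includes 0, and the other 4 genes lie between -3.18 and -2.76.

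The receptors went in different directions. The authors' deposited table has ERBB3, the neuregulin receptor, 136-fold higher (log2 7.08, edgeR FDR 1.59e-10). Its approximate 95% interval, computed here from the deposited fold and F, ran from 90.0-fold to 205-fold. ERBB3 stood at 56.9 CPM on the positive side and 0.419 CPM on the negative side. The lower of these levels corresponds to about 7 reads over a whole group, so the size of the fold rests on few reads, although the 2 sides are far apart. Counting error from so few reads alone exceeds the error behind the interval given here, which is therefore likely too narrow. By log2 fold change ERBB3 ranked 41 from the top of 12558 genes. The gene spans 56076799 to 56103505 of chromosome 12, plus strand (GENCODE 44, hg38). A protein-coding gene without a row overlaps ERBB3 on the same strand, and reads in the shared stretch cannot be told apart.

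EGFR, the receptor for EGF and TGF-alpha, was 6.75-fold lower (log2 -2.76, edgeR FDR 5.26e-05, from the authors' deposited table). Its interval ran from 3.72-fold to 12.3-fold lower. EGFR was at 1.75 CPM on the positive side and 11.8 CPM on the negative side, and the first of these is worth about 12 reads over a group. With so few reads the EGFR interval may also be too narrow. EGFR spans 55019017 to 55211628 of chromosome 7, plus strand, and the antisense transcript EGFR-AS1 overlaps it. Whether counting used strand is not given in the sources used here, so reads of that transcript and of EGFR cannot be told apart.

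ERBB2, the shared partner receptor, did not pass (log2 -0.22, edgeR FDR 0.319, from the authors' deposited table). Its interval allows anything from a 1.52-fold lower to a 1.12-fold higher level. ERBB2 was at 20.1 CPM on the positive side and 23.5 CPM on the negative side. Centred on the spike-in RNAs its log2 value was -0.79 (t test, adjusted p of 0.0014), so its call depends on the centre chosen. That t test leaves out the error of the spike-in median. The genes MIEN1 and PGAP3 overlap ERBB2 on the opposite strand of chromosome 17 (39687914 to 39730426 for ERBB2), and neither passed the FDR in the authors' deposited table (log2 -0.13 and 0.00). They averaged 37.6 and 14.6 CPM. As strand use in counting is not given, their reads and those of ERBB2 cannot be told apart where the genes overlap.

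The receptor with the highest level was ERBB3 on the positive side and ERBB2 on the negative side. Among the summed reads of the 3 receptors, ERBB3 made up 72.2%, ERBB2 25.6% and EGFR 2.22% on the positive side. On the negative side ERBB2 made up 65.8%, EGFR 33.1% and ERBB3 1.17%. Weighted by estimated depth, the ERBB3 share was 78.3% on the positive side and 1.68% on the negative side. The receptors summed to 78.8 CPM on the positive side and 35.7 CPM on the negative side. These shares describe RNA and were not tested, since no value per library is given. ERBB4 is among the named relatives without a row.

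**Figure D2:**
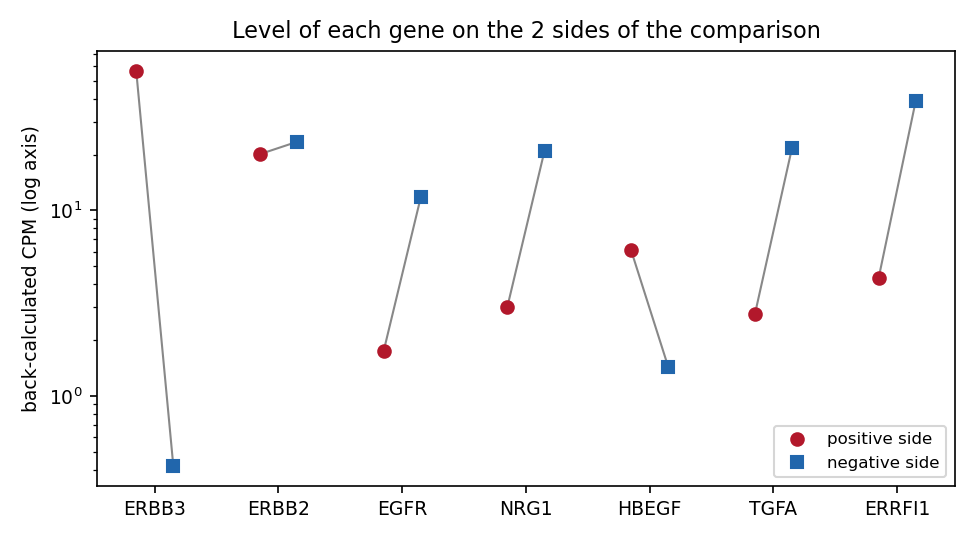
Back-calculated level of each gene in CPM (log axis), positive side as circles and negative side as squares, joined by a line per gene. ERBB3 is at 56.9 CPM on the positive side and 0.419 CPM on the negative side, whereas ERBB2 is at 20.1 CPM and 23.5 CPM; the levels are derived from the average and the fold and have no error bars.

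Start site sequences are shown for EGFR and ERRFI1, which were lower, and for HBEGF, which was higher, because these genes moved in opposite directions and EGFR has a pair of listed starts that differ in composition. Windows of 250 bases before to 50 after each RefSeq start (GRCh38.p14) were used for 7 of the 9 named genes. None was used for ERBB3 and NRG1, which are named only. Capitals mark matches, on either strand, to the AP-1 motif TGANTCA, the TCF/LEF motif TCAAAG, the SOX motifs ACAAAG and ACAATG, and the E-boxes CACGTG and CATGTG.
EGFR first start (plus strand, chr7:55018767-55019066): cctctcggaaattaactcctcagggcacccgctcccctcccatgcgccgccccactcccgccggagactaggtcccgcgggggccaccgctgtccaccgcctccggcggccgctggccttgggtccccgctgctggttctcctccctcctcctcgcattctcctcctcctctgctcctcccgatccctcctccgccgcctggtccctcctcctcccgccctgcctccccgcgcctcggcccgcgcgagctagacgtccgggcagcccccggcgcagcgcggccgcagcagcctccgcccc
EGFR second start (plus strand, chr7:55109589-55109888): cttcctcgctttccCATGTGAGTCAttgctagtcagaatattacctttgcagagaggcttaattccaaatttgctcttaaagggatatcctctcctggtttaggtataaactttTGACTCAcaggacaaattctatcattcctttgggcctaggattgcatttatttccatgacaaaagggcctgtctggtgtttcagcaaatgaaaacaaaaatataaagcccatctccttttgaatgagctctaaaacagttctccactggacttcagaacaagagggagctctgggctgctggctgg
ERRFI1 (minus strand, chr1:8026260-8026559): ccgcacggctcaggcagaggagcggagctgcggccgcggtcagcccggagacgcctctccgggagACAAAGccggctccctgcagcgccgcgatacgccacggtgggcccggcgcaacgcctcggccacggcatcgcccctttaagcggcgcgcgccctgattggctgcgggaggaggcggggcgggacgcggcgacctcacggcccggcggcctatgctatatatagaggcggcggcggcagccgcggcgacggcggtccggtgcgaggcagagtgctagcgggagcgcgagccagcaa
HBEGF (minus strand, chr5:140346554-140346853): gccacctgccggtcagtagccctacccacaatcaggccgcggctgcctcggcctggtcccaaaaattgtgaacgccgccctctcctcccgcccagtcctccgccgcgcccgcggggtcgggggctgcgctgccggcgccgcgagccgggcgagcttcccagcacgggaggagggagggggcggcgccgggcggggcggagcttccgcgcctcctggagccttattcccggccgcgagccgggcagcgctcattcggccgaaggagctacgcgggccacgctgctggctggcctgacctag

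The first EGFR window was 75.3% G and C, close to HBEGF at 75.0% and ERRFI1 at 74.7%, and above the median of 58.7% over 35116 RefSeq windows of that length. Its GC boxes (GGGCGG on either strand) numbered 3, against 5 in HBEGF and 1 in ERRFI1, and 45.0% of all windows hold at least 1. None of these 3 windows holds the AP-1 motif. The second EGFR start lies 90.8 kb further into the gene, and its window was 42.0% G and C. It holds 2 AP-1 matches, 232 and 136 bases before the start, the first of which shares bases with an E-box match. The ERBB2 window holds 1 AP-1 match, 222 bases before its start. The AP-1 motif occurs in 7.71% of all windows, an E-box in 17.6%, a SOX motif in 24.5% and the TCF/LEF motif in 12.9%. The ERRFI1 window holds 1 SOX match and the second of the 2 TGFA windows 1 SOX and 1 E-box match. The TCF/LEF motif is in none of the 7 windows of EGFR, ERBB2, TGFA, HBEGF and ERRFI1. The deposited table counts a gene as a whole and does not say which start was used.

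The ligands also split. NRG1, a neuregulin that binds ERBB3 and ERBB4, was 6.92-fold lower (log2 -2.79, edgeR FDR 1.97e-05, from the authors' deposited table), with an interval of 4.01-fold to 11.9-fold. NRG1 was at 3.03 CPM on the positive side and 21.0 CPM on the negative side. NRG1 was lower on the side where its receptor ERBB3 was higher. The gene spans 1216 kb of the plus strand of chromosome 8, at 31639222 to 32855666, and its many isoforms are counted together. A protein-coding gene without a row overlaps NRG1 on the same strand.

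TGFA, which encodes the EGFR ligand TGF-alpha, was 7.88-fold lower (log2 -2.98, edgeR FDR 9.32e-06, from the authors' deposited table). The interval of that fold was 4.60 to 13.5. TGFA stood at 2.76 CPM on the positive side and 21.8 CPM on the negative side. Its difference had the same sign as that of EGFR. TGFA lies on the minus strand of chromosome 2, at 70447284 to 70554193.

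HBEGF, a heparin-binding ligand of EGFR and ERBB4, was the only one of the 3 measured ligands that was higher, by 4.25-fold (log2 2.09, edgeR FDR 0.000535, from the authors' deposited table). Its interval ran from 2.36-fold to 7.68-fold higher. HBEGF was at 6.09 CPM on the positive side and 1.43 CPM on the negative side, where that level is worth about 26 reads. Its average of 3.76 CPM was the lowest of the 7 genes in the authors' deposited table. Of the sum of the 2 EGFR ligands, HBEGF made up 68.8% on the positive side and 6.17% on the negative side. Their summed level was 8.85 CPM on the positive side and 23.2 CPM on the negative side. HBEGF lies on the minus strand of chromosome 5, at 140332843 to 140346603.

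ERRFI1, an inhibitor of EGFR and ERBB2 kinase activity that EGF signalling itself induces, was 9.03-fold lower (log2 -3.18, edgeR FDR 1.18e-06, from the authors' deposited table). Its interval was 5.66-fold to 14.4-fold. ERRFI1 was at 4.33 CPM on the positive side and 39.1 CPM on the negative side. It was the most abundant of the 7 genes on the negative side. The gene lies on the minus strand of chromosome 1, at 8004404 to 8026309.

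The log2 fold changes of the 4 lower genes spanned 0.42 in the authors' deposited table, and the widest difference, that of EGFR minus ERRFI1, had an approximate interval of -0.67 to 1.51, so the data do not order them. The log2 fold change of ERBB3 minus that of EGFR came to 9.84, with an interval of 8.79 to 10.9. For HBEGF minus TGFA it came to 5.07, with an interval of 3.91 to 6.22. These intervals treat the errors of both genes as independent, although all genes come from the same libraries. The interval of ERBB3 minus EGFR is likely too narrow, as that of ERBB3 is. Among all genes, the 4 lower members ranked 648 to 752 from the bottom.

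**Figure D3:**
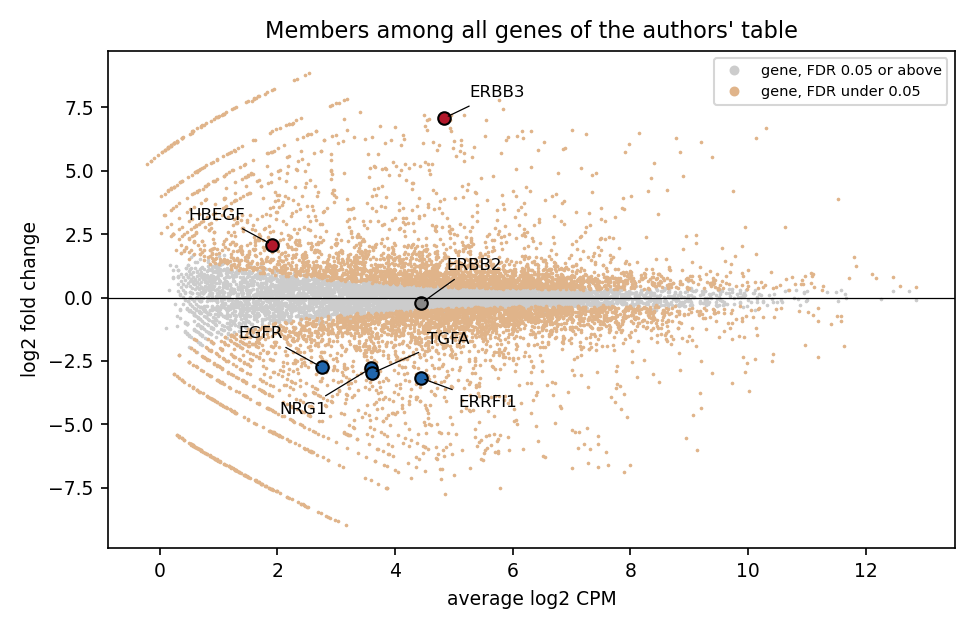
Average log2 CPM against log2 fold change for the 12558 genes of the authors' deposited table, with the 7 measured ERBB genes as large labelled points. ERBB3 lies near the upper edge of the cloud at 7.08, and EGFR, NRG1, TGFA and ERRFI1 lie together at about -3; the curved rows of points at low CPM are genes with 0, 1, 2 or a few reads in a group.

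Of 7 other ERBB relatives, NRG2, NRG3, NRG4, EGF, BTC, EPGN and ERBB4, those with a row are NRG2 and NRG3. NRG3, a neuregulin for ERBB4, passed in the higher direction with no reads on the negative side, so no fold is given; it averaged 2.84 CPM in the authors' deposited table (edgeR FDR 4.63e-06). NRG2 did not pass (0.499-fold, edgeR FDR 0.0969, from the authors' deposited table), but did when centred on the spike-ins (log2 -1.57, adjusted p = 0.0107).

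Of 11 measured genes that free the ligands from the cell surface or inhibit this step, 3 were higher and 6 lower, with a median log2 fold change of -0.85, against -0.01 over all genes. The share called over all genes was 50.9%. ADAM12, a protease known to shed HB-EGF, was 84.3-fold lower and ADAM19, a protease linked to neuregulin processing, 31.8-fold lower in the authors' deposited table (edgeR FDR 2.97e-10 and 1.89e-09). Their levels on the positive side are worth about 7 and 13 reads over a group, so the sizes of these folds rest on few reads. The secreted protease inhibitor TIMP3 was 5.15-fold and BACE1, which cleaves neuregulin 1 in mice, 5.53-fold lower in the authors' deposited table (edgeR FDR 1.32e-09 and 4.93e-08). ADAM17, the main sheddase of TGF-alpha, did not pass (log2 0.54, edgeR FDR 0.0947, from the authors' deposited table). ADAM10, a further sheddase of ERBB ligands, was higher (log2 1.27, edgeR FDR 6.59e-05, from the authors' deposited table).

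Of 14 measured genes that restrain the receptors or turn them over, 2 were higher, 3 lower and 9 did not pass (median log2 -0.06), against 50.9% of all genes called. Centred on the spike-ins, 9 of the 14 were called lower and 0 higher, against 6564 lower and 1423 higher of all 12558 genes. SOCS5, a suppressor of EGFR signalling, was 2.63-fold and LRIG1, a membrane protein that promotes ERBB receptor degradation, 3.68-fold lower in the authors' deposited table (edgeR FDR 9.75e-05 and 0.00067). SH3KBP1, the adaptor that links CBL to endocytosis, was 1.68-fold and the deubiquitinase USP8 1.62-fold higher in the authors' deposited table (edgeR FDR 0.000268 and 0.00917). Both lost the call when centred on the spike-ins (adjusted p = 0.241 and 0.590), and USP8 did so with 4 denominator degrees of freedom. LRIG1 and ERRFI1, both inhibitors of the receptors, were lower, as EGFR was.

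Adaptors and effectors next to the receptors went both ways. Of 23 measured, 7 were higher, 5 lower and 11 did not pass (median log2 0.04), against 50.9% of all genes called. The docking protein GAB2 was 14.6-fold, STAT5A 3.31-fold and the adaptor GRB10 3.14-fold higher in the authors' deposited table (edgeR FDR 2.99e-10, 2.80e-07 and 3.04e-07). VAV2, a guanine nucleotide exchange factor, was 2.39-fold lower (edgeR FDR 5.30e-06, from the authors' deposited table).

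Of 17 genes of the RAS-ERK and AKT core, 2 were higher, 3 lower and 12 did not pass (median log2 -0.13), against 50.9% of all genes called. HRAS was 2.01-fold and MAPK3 1.53-fold lower, and MTOR 1.65-fold higher, in the authors' deposited table (edgeR FDR 4.11e-05, 0.00123 and 0.00225). MAP2K2, a kinase that activates ERK, was 1.29-fold higher (edgeR FDR 0.0246, from the authors' deposited table). MTOR and MAP2K2 lost the call when centred on the spike-ins (adjusted p = 0.440 and 0.156), and MAP2K2 did so with 4 denominator degrees of freedom (adjusted p = 0.0959).

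Of 18 genes of receptor endocytosis, 3 were higher, 5 lower and 10 did not pass (median log2 -0.01), against 50.9% of all genes called. RAB7A, which directs cargo to lysosomes, was 2.30-fold and EPS15, an endocytic substrate of EGFR, 2.20-fold higher in the authors' deposited table (edgeR FDR 1.24e-06 and 8.07e-05). The clathrin light chains CLTB and CLTA were 1.93-fold and 1.63-fold lower in the authors' deposited table (edgeR FDR 3.52e-05 and 0.000565).

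Transcripts that EGF is known to induce had 4 higher and 7 lower members of 22, with 11 that did not pass (median log2 -0.34). In the authors' deposited table, the lower ones included IER2 at 2.89-fold, PHLDA1 at 2.31-fold, the urokinase receptor PLAUR at 5.55-fold and the AP-1 subunit FOSL1 at 5.66-fold (edgeR FDR 3.51e-07, 2.04e-06, 4.12e-07 and 6.15e-07). FOS, MYC, DUSP4 and SPRED1 were the higher ones. Of these, MYC and DUSP4 lost the call when centred on the spike-ins (adjusted p = 0.107 and 0.195). Together the 7 lists held 107 measured genes, of which 22 were higher and 29 lower (47.7% called, against 50.9% of all genes). Centred on the spike-ins, 11 of the 107 were higher and 66 lower, against 1423 higher and 6564 lower of all 12558 genes. That centring gave 1 higher and 7 lower for ligand shedding, 5 and 12 for the adaptors, 0 and 10 for the RAS-ERK and AKT core, 2 and 14 for endocytosis and 2 and 13 for the EGF-induced transcripts.

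**Figure D4:**
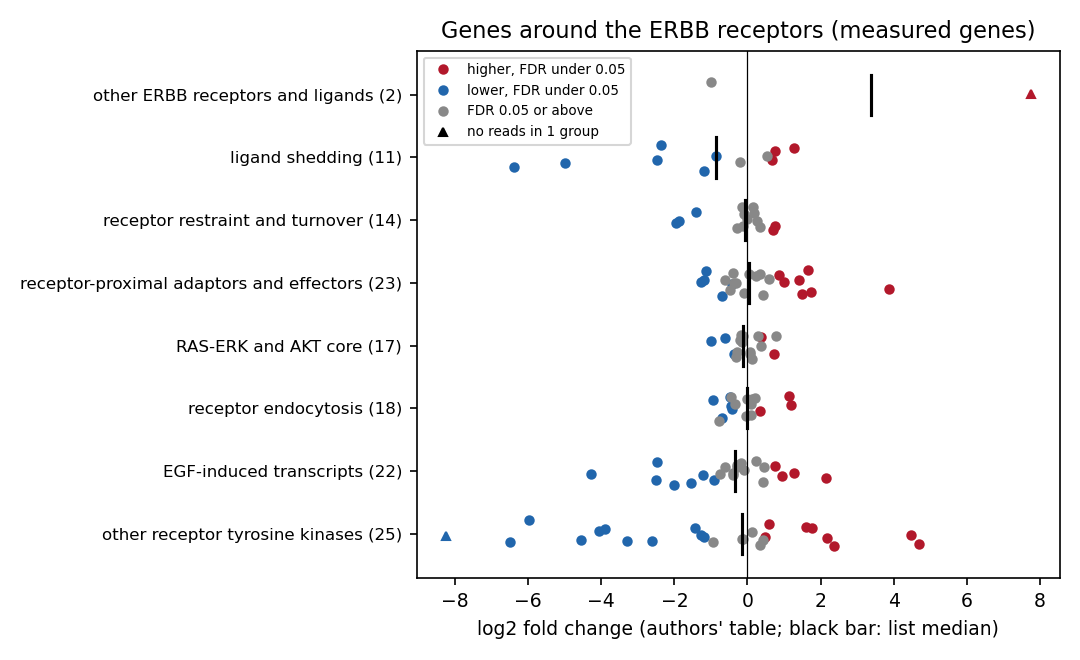
Log2 fold change of each measured gene in 7 lists around the ERBB receptors and in the other receptor tyrosine kinases, 1 row per list with the number of genes in brackets; black bars are medians and triangles are genes with no reads in 1 group. The medians of the lists of 11 or more genes lie between -0.85 (ligand shedding) and 0.04, and ADAM12 lies at -6.40.

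Regulators reported for ERBB3 or EGFR in melanoma all passed, 4 of 7 higher and 3 lower, against 50.9% of all genes called. SOX10 was 78.0-fold and MITF 18.6-fold higher (edgeR FDR 2.22e-10 and 5.41e-11, authors' deposited table). TFAP2A was 2.22-fold and FOXD3 4.74-fold higher (edgeR FDR 8.44e-06 and 0.0101, authors' deposited table). FOXD3 averaged only 2.12 CPM in the authors' deposited table and lost its call at 4 denominator degrees of freedom (adjusted p = 0.068). JUN, FOSL1 and SOX9 were lower, with log2 values of -3.73, -2.50 and -2.16 (authors' deposited table). SOX10 had the sign of ERBB3, and JUN and FOSL1 had that of EGFR. With 1 comparison, likeness of pattern over samples cannot be measured.

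Genes next to the members along the chromosome were compared with them, within 500 kb on either side. The nearest measured gene before ERBB3, RPS26 at 32.1 kb, and the nearest after it, PA2G4 at 1.03 kb, did not pass (log2 -0.26 and 0.00, edgeR FDR 0.203 and 0.985 in the authors' deposited table). Beyond PA2G4, RPL41 at 13.1 kb and ZC3H10 at 14.8 kb did not pass, and ESYT1 at 14.7 kb was lower (log2 -0.93, edgeR FDR 3.79e-05, from the authors' deposited table). Of 35 measured genes in that window 7 were higher and 5 lower, with a median of -0.03, against 50.9% of all genes called. Among them PMEL, a melanosome matrix gene 103 kb from ERBB3, had a log2 value of 6.30 and DGKA, 123 kb away, one of -5.32 in the authors' deposited table. EGFR had 3 measured neighbours, with a median of -0.19. SEC61G before it and LANCL2 after it, each the nearest on its side, had log2 values of -0.19 and -0.01 in the authors' deposited table and did not pass (edgeR FDR 0.477 and 0.976). VOPP1, which lies beyond LANCL2 at 224 kb, was lower, as EGFR was (log2 -1.20, edgeR FDR 8.03e-06, from the authors' deposited table).

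Medians were also within 0.5 of 0 around the other genes that moved. The 18 neighbours of HBEGF had a median of -0.08, with 3 higher and 5 lower. The 11 of TGFA had one of -0.23 (1 higher, 0 lower) and the 6 of ERRFI1 one of 0.43 (1 higher, 1 lower). Over all genes 50.9% were called. Of the nearest genes of HBEGF, PFDN1 was lower (log2 -0.86, edgeR FDR 0.00018) and ANKHD1 did not pass (log2 -0.03, edgeR FDR 0.904), from the authors' deposited table. The nearest genes of TGFA, FAM136A and ADD2, did not pass (log2 -0.28 and 0.42, edgeR FDR 0.108 and 0.163, from the authors' deposited table). For NRG1 only WRN lay within the window, and it did not pass (log2 0.46, edgeR FDR 0.0841, from the authors' deposited table). One neighbour of ERRFI1, SLC45A1, moved with it (log2 -4.44, edgeR FDR 0.00059 in the authors' deposited table), whereas PARK7, 18.9 kb away on the other side, did not pass (0.27, edgeR FDR 0.157). SLC45A1 averaged only 2.33 CPM. ERBB2, which did not pass, had 18 neighbours with a median of 0.00. Of these, 2 were higher, 3 lower and 13 did not pass, against 50.9% of all genes called. Of the nearest genes of ERBB2, TCAP did not pass (log2 0.84, edgeR FDR 0.317) and ORMDL3 was lower (log2 -0.48, edgeR FDR 0.0312), from the authors' deposited table.

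**Figure D5:**
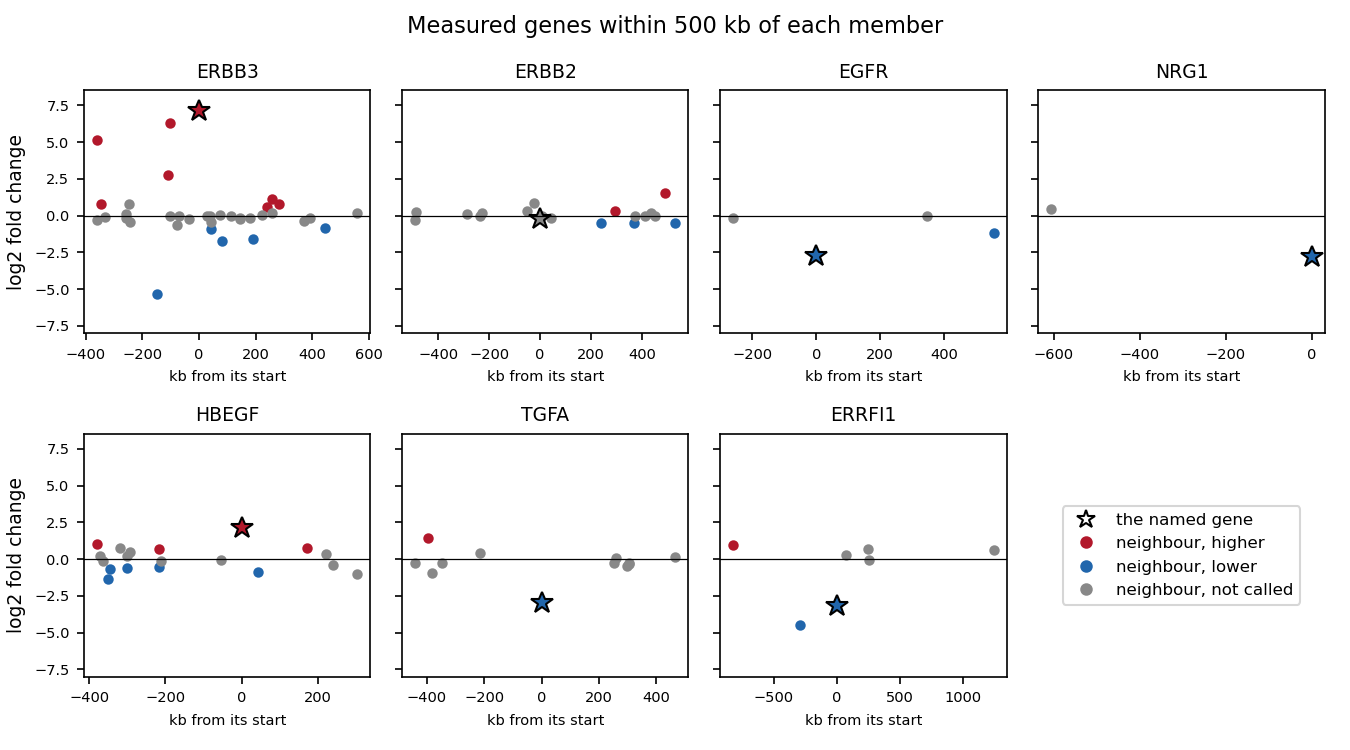
Log2 fold change of measured genes within 500 kb of each member, against the distance of their start from that of the member in kb along its own strand; the star is the member. The stars of ERBB3, EGFR, NRG1, HBEGF, TGFA and ERRFI1 are drawn among neighbours whose medians lie between -0.23 and 0.46; PMEL near ERBB3 is at 6.30 and SLC45A1 near ERRFI1 at -4.44.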

How the data were processed

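STAR and edgeR on hg38 are what the authors used, per the submitters' processing notes; no source used here gives their versions, the read counter, the gene annotation or how low genes were removed. Per the file headers, each row holds a log2 fold change, the same as a linear ratio, an average log2 CPM, an F score, a p-value and its adjusted form (FDR), all as deposited. Recomputed over the 12617 rows, Benjamini-Hochberg values differed from the authors' FDR by at most a relative 9.01e-13. The 59 spike-in rows stayed out of gene counts.

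The table has no counts per library, so the authors' F test was used in place of a new fit. A gene was called at FDR under 0.05. The approximate standard error is the size of the log2 fold change over the root of F, with 14.03 denominator degrees of freedom solved from F and p. This and the read steps were tested on simulated data. For the standard error the simulated folds were far smaller than that of ERBB3 and both groups had equal depth. That test therefore does not cover the ERBB3 interval. Genes with 12.03 were taken to have no reads in 1 group. For the spike-in centring, the spike-in median was subtracted from each log2 fold change. The result over its approximate standard error gave a t test, adjusted again over all rows. The error of the spike-in median itself was left out, so those adjusted p-values are likely too small. Levels per side were solved from average and fold. Positions come from GENCODE 44, matched for 11559 of 12558 genes. The members, lists and tests were chosen with earlier results of these data known. The named genes are all members, the 4 smallest p-values of each list, the markers, reported regulators and the nearest measured gene on either side of a member within 500 kb. A further gene written into the RAS-ERK and AKT list is not reported here, and that list's counts are over its 17 other genes. Other list genes and neighbours were chosen after their values were seen. The labels name no separate cultures, so p-values cover the spread among these libraries, perhaps technical. Python 3.11.15, numpy 2.4.6, pandas 2.3.3, scipy 1.17.1 and matplotlib 3.10.9 were used.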

Additional observations from a re-analysis of the deposited data

How the results depend on the processing

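The 6 called members kept their direction and call when centred on the spike-ins, with 4 denominator degrees of freedom, with the FDR over gene rows, above an average log2 CPM of 1, at an FDR of 0.01 and at 2-fold. ERBB2 passed when centred on the spike-ins (-0.79) and in no other alternative. Genes higher over the whole table numbered 3080 as deposited, 1423 centred on the spike-ins, 1965 with 4 denominator degrees of freedom and 1669 at 2-fold; genes lower numbered 3318, 6564, 2175 and 1963 in the same order. In the pathway lists 22 were higher and 29 lower, against 11 and 66 centred on the spike-ins and 12 and 18 at 2-fold. Weighting by depth was chosen after seeing the data. Leaving out replicates, a DESeq2 fit and another pseudocount were not run, since the table has no values per library. No paired analysis was possible because the columns carry no replicate numbers. Few reads limit the folds of ERBB3 (about 7 on its low side) and EGFR (about 12) most. The low sides of TGFA, NRG1, HBEGF and ERRFI1 are worth about 19, 21, 26 and 31 reads over a group.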

Other observations

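Other receptor tyrosine kinases, a list added after the values were seen, had 25 measured members of 47, 8 of them higher and 11 lower (median log2 -0.15, from the authors' deposited table). Over all genes 24.5% were higher and 26.4% lower. AXL was 91.0-fold, EPHB2 62.8-fold, EPHB3 9.80-fold and the collagen receptor DDR1 6.13-fold lower in the authors' deposited table (edgeR FDR 2.96e-10, 1.48e-09, 4.67e-08 and 3.00e-08). The levels of AXL and EPHB2 on the positive side are worth about 24 and 16 reads over a group, so the sizes of their folds rest on few reads. The stem cell factor receptor KIT, with a log2 value of 2.37, and MERTK, with 4.69, were higher in the authors' deposited table. MERTK averaged only 2.64 CPM, and its level on the negative side is worth about 3 reads over a group. ERBB3, at 7.08, exceeded every one of these 25 in the higher direction. MET, the hepatocyte growth factor receptor, did not pass (log2 -0.15, edgeR FDR 0.475, from the authors' deposited table), but did when centred on the spike-ins (adjusted p = 0.0018).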
